A study of Mus musculus with 12 samples.

Results

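The genes described here are 44 members of the BMP and TGF-beta signalling pathway, taken as a named list out of 21887 protein-coding genes of the mouse. They comprise 15 ligands, 10 receptors, 8 Smads, 7 extracellular or membrane antagonists and 4 Id target genes. For each gene the quantity measured was the length of DNA lying under H3K27ac peaks. H3K27ac is acetylation of lysine 27 of histone H3, a mark of active promoters and enhancers. Chromatin came from whole cortex lysates of E15.5 mouse embryos, with 3 libraries of genotype Prdm16 flox/flox, called WT, and 3 of genotype Emx1Ires-Cre; Prdm16 flox/flox, called cKO. Both groups therefore carry the floxed Prdm16 alleles and differ in the Cre driver. Prdm16 encodes a zinc finger protein that regulates transcription in neural progenitors. Emx1-driven Cre acts in dorsal telencephalic progenitors and their descendants, so blood vessels, microglia, meninges and incoming interneurons in the lysate keep the intact floxed gene. The sources used here do not say whether the 3 libraries of a genotype came from separate animals or from pooled litters, so the tests see the variation among these libraries, which may be technical.

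BMP and TGF-beta ligands are secreted dimers that bind pairs of type I and type II receptor kinases. BMP receptors phosphorylate Smad1, Smad5 and Smad9, and TGF-beta and activin receptors phosphorylate Smad2 and Smad3. These join Smad4 and enter the nucleus, where the Id genes are among the best known BMP targets. In the embryonic forebrain BMPs are secreted by the dorsal midline and meninges, pattern the dorsal telencephalon, and influence the choice between neuronal and glial fates. Noggin, chordin, gremlin and follistatin bind ligands outside the cell, and Smad6 and Smad7 block the pathway inside it.

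The 6 deposited peak lists held 48168 to 75563 peaks covering 53.87 to 92.07 Mb. WT lists covered 83.26, 92.07 and 53.87 Mb and cKO lists 72.88, 70.8 and 63.55 Mb, so the WT lists spanned the cKO lists. Each list was therefore scaled to the mean total of 72.74 Mb before genes were compared, and all lengths below are scaled unless called raw. The libraries fall into library set A (replicates 1 and 2 of both genotypes) and library set B (replicate 3 of both), read from library identifiers. Set B holds 1 library per genotype, so its difference has no replicate check. The windows of 11 markers of cortical excitatory neurons and progenitors, all 11 tested, summed to 235 to 308 kb in WT and 261 to 281 kb in cKO. The targeted gene itself does not check the labels in these data, because acetylation around a deleted exon need not change. Its window held 80929, 76295 and 80856 bp in WT and 94625, 95101 and 99982 bp in cKO (log2 difference 0.28 ± 0.11 SE, limma adjusted p = 0.359).

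The window of a gene was its body plus 20 kb on each side. A limma model with library set as covariate was fitted to log2(length + 500 bp) for 15359 genes with a mean of at least 1000 bp, and a gene was called at a Benjamini-Hochberg adjusted p below 0.05. Of the 44 pathway genes, 42 passed the length filter and 1 was called. Smoc1, which encodes a secreted calcium-binding matrix protein that antagonises BMP signalling, had a shorter acetylated length in cKO. No pathway gene was called higher. Among all genes tested, 0.319% were called lower and 0.371% higher, and the 1 call makes up 2.38% of the 42 pathway genes. At an unadjusted p below 0.05, 3 pathway genes were lower (7.14%, against 4.29% of all genes tested) and 2 were higher (4.76%, against 5.66%). The median log2 difference was 0.04 over the pathway genes, with 26 positive and 16 negative values. Over all genes tested it was 0.05, with 10026 positive and 5333 negative values, so positive values prevailed there too. Without scaling the median of all genes tested moved to -0.05, and the class medians moved down with it, to 0.01 for the Id genes (2 positive, 2 negative), -0.02 for the receptors (3 and 7), -0.04 for the antagonists (3 and 4) and -0.13 for the ligands (3 and 10). The Smads then had 2 positive and 6 negative values. Summed over the 44 windows the covered length was 276 to 295 kb in WT and 279 to 295 kb in cKO.

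**Figure D1:**
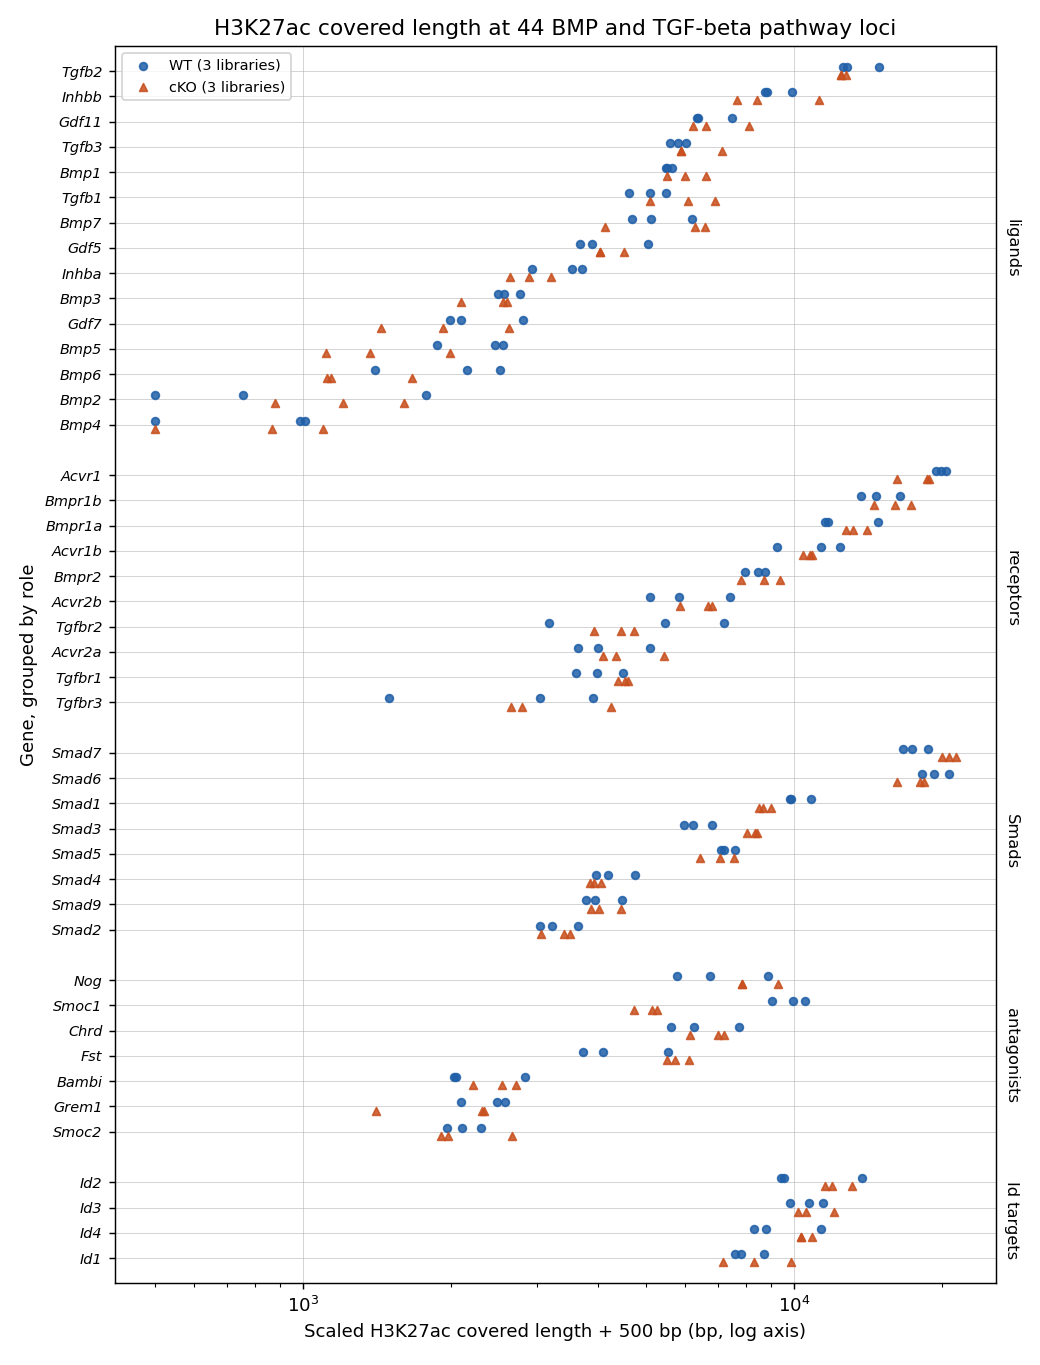
Scaled H3K27ac covered length plus 500 bp (horizontal log axis, bp) for the 44 pathway genes, grouped by role and ordered by mean within a role; circles are the 3 WT libraries and triangles the 3 cKO libraries. WT and cKO points overlap for most genes, whereas the Smoc1 triangles (4223 to 4773 bp before the 500 bp are added) lie left of all Smoc1 circles (8547 to 10043 bp).

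The share of the window under peaks is the raw covered length divided by window length, as the mean of the 6 lists. It ranged over the pathway genes from 0.639% at Bmp6 to 27.1% at Smad7. After Smad7 the most densely covered windows were those of Id2 with 25.5%, Id3 with 24.7%, Id4 with 20.8% and Id1 with 18.8%. The least covered were Bmp6, Bmp4 with 0.761% and Bmp5 with 0.85%. Gene lengths differ widely among these, from 1160 to 4913 bp for the Id genes to 124952 bp for Bmp5 and 154599 bp for Bmp6. Bmp4, with 7145 bp, is short. Whether the ranking follows gene length was not tested. The strongest peak of a window can also be ranked within its own list by the -log10 q value that the authors' peak caller gave. That of Bmpr2, the type II BMP receptor, ranked above 99.3 to 99.9% of all peaks in each list. Those of Smad1 (97.1 to 99.3%) and Id3 (97.5 to 99.2%) were close to it. The strongest Bmp4 peak ranked above only 11.5 to 33.3% in the 4 lists that had one.

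Transcription starts were available from RefSeq (GRCm38.p6) for 28 of the 44 genes. Of these, 22 (78.6%) had a start under a peak in all 6 lists, against 53.4% of 17492 genes with a start in the table. Bmp4, Bmp5 and Bmp6 (10.7%) had no peak over the start in any list, against 39.7% of those genes. The starts of Tgfb1, Gdf7 and Smad9 were covered in 2, 4 and 5 lists. The 250 bases before the start held a median of 22 CpG dinucleotides in the 28 pathway genes and of 10 in 21263 promoters of the table. Upstream stretches are shown to set starts that were acetylated in every list (Id2, Id4, Smad3) beside starts without a peak (Bmp5, Bmp6). They are the 250 bases before the start in GRCm38.p6, written 5′ to 3′ on the strand of the gene. Id2 lies at chr12:25096093-25096342 on the minus strand, Id4 at chr13:48260866-48261115 on the plus strand and Smad3 at chr9:63757995-63758244 on the minus strand. Bmp5 lies at chr9:75775115-75775364 and Bmp6 at chr13:38345466-38345715, both on the plus strand. Capitals mark exact matches to GGCGCC, a GC-rich element that Smad1 and Smad5 can bind, or to CAGACA, the element bound by Smad3 and Smad4.
Id2: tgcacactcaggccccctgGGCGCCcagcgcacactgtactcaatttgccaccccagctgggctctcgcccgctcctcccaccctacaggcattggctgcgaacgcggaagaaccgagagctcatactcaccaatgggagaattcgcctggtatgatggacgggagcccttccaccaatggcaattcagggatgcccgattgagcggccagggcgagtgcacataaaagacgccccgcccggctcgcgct
Id4: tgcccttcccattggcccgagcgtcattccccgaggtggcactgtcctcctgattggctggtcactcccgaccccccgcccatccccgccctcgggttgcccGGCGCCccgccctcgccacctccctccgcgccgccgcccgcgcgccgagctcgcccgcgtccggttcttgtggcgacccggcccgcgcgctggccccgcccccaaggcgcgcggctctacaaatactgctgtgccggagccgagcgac
Smad3: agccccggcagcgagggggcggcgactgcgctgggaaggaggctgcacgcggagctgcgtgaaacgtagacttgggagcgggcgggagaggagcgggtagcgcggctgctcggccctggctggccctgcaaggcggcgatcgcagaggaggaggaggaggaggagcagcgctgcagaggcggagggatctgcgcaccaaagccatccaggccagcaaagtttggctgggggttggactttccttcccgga
Bmp5: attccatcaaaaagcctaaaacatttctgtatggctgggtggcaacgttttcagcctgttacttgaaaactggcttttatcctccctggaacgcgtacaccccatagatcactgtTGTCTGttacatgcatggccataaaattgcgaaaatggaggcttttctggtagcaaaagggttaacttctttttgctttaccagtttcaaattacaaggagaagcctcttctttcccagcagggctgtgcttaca
Bmp6: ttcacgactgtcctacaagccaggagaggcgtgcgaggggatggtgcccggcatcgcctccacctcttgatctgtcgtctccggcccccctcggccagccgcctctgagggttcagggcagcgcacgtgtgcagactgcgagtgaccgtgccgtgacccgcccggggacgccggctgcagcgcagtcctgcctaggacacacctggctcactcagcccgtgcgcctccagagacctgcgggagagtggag

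Both strands were searched. GGCGCC reads the same on both, and CAGACA appears as its complement TGTCTG in the Bmp5 sequence. None of the 28 pathway promoters held both motifs, so no matches overlapped. GGCGCC was present in 8 of the 28 pathway promoters (Id2, Id4, Smad9, Chrd, Grem1, Bmpr1a, Bmpr2 and Tgfbr1) and in 12.3% of all promoters of the same length. CAGACA was present in 3 (Bmp5, Tgfb2 and Bmpr1b), against 15.2% of all promoters. The median share of G and C was 68.4% in the 28 pathway promoters and 55.6% in all promoters. Promoters matched for that share were not compared, so the GGCGCC count cannot show whether a Smad element is enriched. In Id2 the GGCGCC match began at position -231 relative to the start, and in Id4 at -148. These matches are letters in a window, not measured binding sites.

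Smoc1 lies at chromosome 12, 81026808 to 81186414 (mm10), and its window also reaches Slc8a3. Its window held 8547, 10043 and 9444 bp under peaks in WT replicates 1 to 3, and 4651, 4773 and 4223 bp in cKO replicates 1 to 3. Every cKO library lay below every WT library. The WT mean was 9345 ± 753 bp and the cKO mean 4549 ± 289 bp (SD, 3 libraries each), a log2 difference of -0.96 ± 0.11 (SE, limma adjusted p = 0.00231). The difference was -0.91 in library set A and -1.07 in set B. The call depended on single libraries. The limma adjusted p was 0.0566 without WT replicate 2, 0.114 without WT replicate 3 and 0.107 without cKO replicate 3. The log2 difference was -0.91 each time. Without either replicate 3, the library-set covariate absorbs the remaining set B library, so those fits compare set A only. With unscaled lengths the adjusted p was 0.306. In bulk chromatin, fewer cells of a type and less acetylation per cell cannot be told apart.

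The regions of the Smoc1 window did not all differ to the same degree. Merging overlapping peaks of the 6 lists gave 13 regions in the Smoc1 window, and 6 of them had a peak in all 6 lists. A region at the low-coordinate end of the gene (81026428 to 81028090) held 1290, 1663 and 1162 raw bp under peaks in WT and 378, 455 and 320 raw bp in cKO. A second region inside the gene, centred 28.2 kb from that end (81053304 to 81056689), held 2138, 3386 and 1863 raw bp in WT and 701, 1025 and 754 raw bp in cKO. At both, the longest cKO stretch was shorter than the shortest WT stretch. A region at 58.3 kb held 1242, 1081 and 1244 raw bp in the WT lists, while cKO replicate 2 held 362 and the other two cKO lists held none. The regions at 7.1 and 47.7 kb had peaks in 2 WT lists and in 0 cKO lists.

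Other Smoc1 regions differed less. The region at 79.2 kb held 1641, 1536 and 1076 raw bp in WT and 1034, 1446 and 974 raw bp in cKO, and that at 114.3 kb held 650, 1085 and 835 raw bp in WT and 677, 712 and 476 raw bp in cKO. In both regions the genotypes overlapped. The region at 73.6 kb held 826, 618 and 346 raw bp in WT and 398, 352 and 387 raw bp in cKO, also with overlap. Its -log10 q was higher in every cKO list (7.75, 9.42 and 6.58) than in any WT list (2.76, 6.09 and 5.93). At 28.2 kb the -log10 q went the other way, with 10.36, 11.16 and 9.73 in WT and 5.42, 3.37 and 2.55 in cKO. The region with the highest -log10 q of the window was the one at 28.2 kb in WT replicates 1 and 3, and the one at 79.2 kb in WT replicate 2 and in cKO replicates 1 and 3. In cKO replicate 2 it was the one at 73.6 kb.

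**Figure D2:**
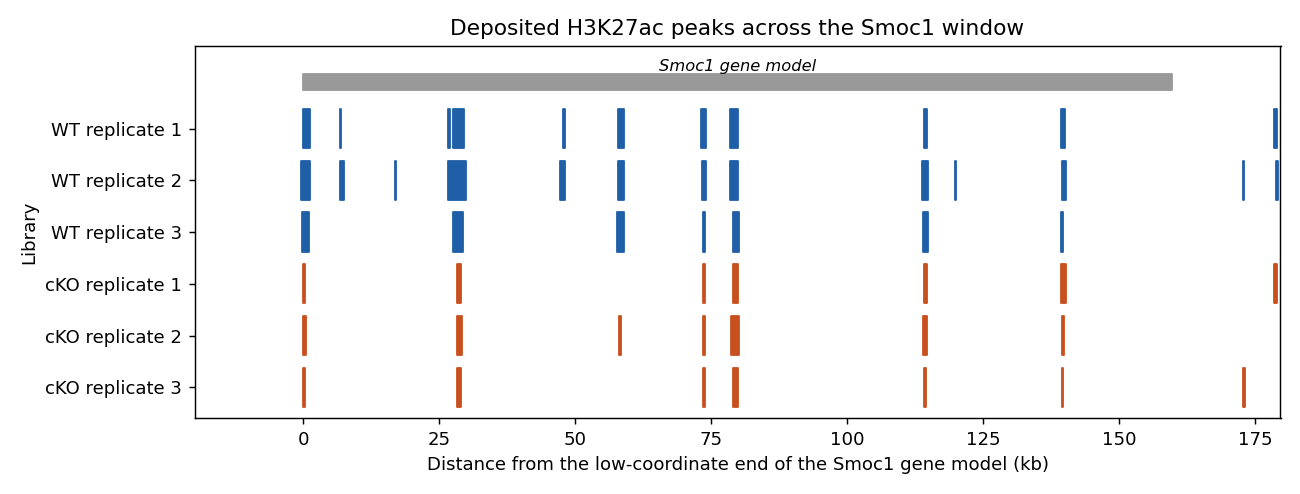
Deposited H3K27ac peaks in the Smoc1 window for each library (rows), as distance in kb from the low-coordinate end of the gene model (grey bar); each block is 1 peak and its width is the peak's length. The blocks near 0 and 28.2 kb are wide in the 3 WT rows and narrow in the 3 cKO rows, and the block at 58.3 kb is present in the 3 WT rows and in 1 cKO row.

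Markers of other cell types in the lysate are given beside the Smoc1 result. The summed windows of 10 cortical hem and choroid plexus markers covered 17.6 to 20.7 kb in WT and 16.8 to 19.4 kb in cKO, with 6 of 10 tested and Otx2 at 0 in every list. Those of 10 meningeal and fibroblast markers covered 25.8 to 28.9 kb and 20.9 to 29.5 kb, with 4 of 10 tested and Foxd1 at 0. Those of 7 endothelial and pericyte markers covered 12.6 to 16.7 kb and 12.9 to 13.7 kb, with 4 of 7 tested and Tek at 0. Those of 5 microglial markers covered 12.4 to 14.2 kb and 11.2 to 12.4 kb, with 4 of 5 tested and the lowest WT sum (12405 bp) just above the highest cKO sum (12392 bp). Those of 7 ventral forebrain and interneuron markers covered 95.4 to 133 kb and 118 to 130 kb, with 6 of 7 tested and Nkx2-1 at 0. The microglial and meningeal sums rest largely on few windows. That of Aif1, shared with Prrc2a, Lst1 and Ltb and without a peak over its start, held 5084 to 7351 bp. That of Spi1, shared with Slc39a13 and Mybpc3, held 2839 to 4031 bp, and that of the meningeal marker Zic1, shared with Zic4, 11290 to 19735 bp. The sums therefore do not measure how many cells of a type were present. No marker that could be tested was called. Of those too short to be tested, 2 were lower in cKO without overlap. Cx3cr1, a microglial chemokine receptor, held 1689, 1221 and 724 bp in WT and 0, 270 and 0 bp in cKO. Dcn, which encodes the fibroblast proteoglycan decorin, held 801, 816 and 1145 bp in WT and 0, 341 and 0 bp in cKO, and 2 regions of its window had peaks in all 3 WT lists and in no cKO list. The tested markers of the same lists lay on both sides. Of the 4 tested microglial markers, 1 had a positive log2 difference and 3 had a negative one. Of the 4 tested meningeal and fibroblast markers, 2 were positive and 2 negative. How often genes this short separate the genotypes was not counted. The part of other cell types in the Smoc1 difference was not tested.

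Of the other antagonists 6 were tested and none was called. Nog (noggin) and Fst (follistatin, which binds activins) had the next smallest p among them. Fst held 3220, 3577 and 5053 bp in WT and 5009, 5239 and 5608 bp in cKO. Only WT replicate 3 reached the cKO range (log2 difference 0.40 ± 0.12 SE, limma adjusted p = 0.206). The region over the Fst gene (chromosome 13, 114456276 to 114460747) held 2425, 2935 and 4385 bp in WT and 4463, 4514 and 5025 bp in cKO, without overlap. Nog held 6258, 5269 and 8367 bp in WT and 7356, 7339 and 8779 bp in cKO. WT replicate 3 again lay within the cKO range (0.24 ± 0.12 SE, limma adjusted p = 0.528). The raw length of the main Nog region, which covers the gene, was 5865 to 6001 bp in the 6 lists. Chrd, Grem1, Bambi and Smoc2, a paralogue of Smoc1, had log2 differences from -0.27 to 0.13. For the 7 antagonists together the median log2 difference was 0.07, with 5 positive and 2 negative.

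Among the ligands, 13 of 15 were tested and none was called. The median log2 difference was -0.02, with 6 positive and 7 negative. The lowest values belonged to Bmp5 and Bmp6, closely related BMPs. Bmp5 held 1374, 1960 and 2062 bp in WT and 612, 1491 and 873 bp in cKO. The cKO replicate 2 value lay inside the WT range and the other two lay below it (log2 difference -0.65 ± 0.19 SE, limma adjusted p = 0.189). Of the cKO replicate 2 length, 779 raw bp lay outside the gene (75900801 to 75901602), under a peak of -log10 q 1.61. WT replicate 2 held 181 raw bp there and the other lists held none. The call for Bmp5 depended on the setting. It passed with peaks of -log10 q of at least 5 (-0.89, limma adjusted p = 0.0286), with equal-length lists (-0.93, limma adjusted p = 0.0392) and with the gene body alone (-0.87, limma adjusted p = 0.0193). Each of these settings leaves out that cKO replicate 2 peak, whose list cut to equal length had a lowest -log10 q of 2.41. Leaving out cKO replicate 2 gave a log2 difference of -0.93 and a limma adjusted p of 0.000361. That is the cKO library inside the WT range, so this fit is no independent check. Bmp5 passed with no other single library left out.

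One region inside Bmp5 (chromosome 9, 75849820 to 75852261) was acetylated in all 6 lists. It held 1374, 1817 and 2062 bp in WT and 612, 690 and 873 bp in cKO, without overlap. Its centre lies 75675 bp downstream of the Bmp5 start shown above, where no list had a peak. Bmp6 held 1659, 2020 and 905 bp in WT and 1170, 639 and 621 bp in cKO. WT replicate 3 lay below cKO replicate 1 (log2 difference -0.61 ± 0.15 SE, limma adjusted p = 0.112). Without cKO replicate 1, the cKO library that lay above WT replicate 3, the limma adjusted p was 0.0072. Bmp6 passed with no other single library left out. Much of the Bmp6 length in WT replicates 1 and 2 came from a region inside the neighbouring gene Txndc5. It held 921 and 1341 raw bp in these replicates and none in the other 4 lists. The region inside Bmp6 with a peak in all 6 lists (38409956 to 38411299) overlapped between the genotypes. It held 978, 957 and 670 raw bp in WT and 1172, 622 and 543 raw bp in cKO.

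Bmp2 and Bmp4, central BMP ligands of the developing brain, had too little acetylated length to be tested. Bmp2 held 256, 1278 and 0 bp in WT and 376, 1104 and 707 bp in cKO. Bmp4 held 512, 487 and 0 bp in WT and 366, 598 and 0 bp in cKO. Replicate 3 of both genotypes had no Bmp4 peak, and these are the library set B lists. Among the ligands the longest acetylated lengths were those of Tgfb2, a TGF-beta isoform, and Inhbb, which encodes an activin subunit. Tgfb2 held 12115, 14390 and 12341 bp in WT and 12282, 11952 and 11998 bp in cKO (-0.09 ± 0.11 SE, limma adjusted p = 0.85). Inhbb held 9415, 8300 and 8249 bp in WT and 7932, 10744 and 7167 bp in cKO (-0.02 ± 0.13 SE, limma adjusted p = 0.962). In both the cKO values overlapped the WT values.

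Bmp7 held 4177, 5697 and 4622 bp in WT and 5795, 6095 and 3625 bp in cKO, with the cKO libraries on both sides of the WT range (0.07 ± 0.15 SE, limma adjusted p = 0.903). Its window nevertheless held a short region with a peak in all 3 WT lists and in no cKO list (chromosome 2, 172853935 to 172854642, outside the gene; 599, 380 and 175 raw bp in WT).

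The 8 Smads had a median log2 difference of -0.03, with 4 positive and 4 negative, and none was called. Smad3, the TGF-beta and activin effector, had the smallest p of the class. It held 5472, 6328 and 5739 bp in WT and 7853, 7906 and 7523 bp in cKO. Every cKO library lay above every WT library (log2 difference 0.38 ± 0.11 SE, limma adjusted p = 0.182), by 0.39 in library set A and 0.36 in set B. The region over the Smad3 start (chromosome 9, 63754616 to 63759491), whose upstream sequence is shown above, held 3418, 3670 and 4256 bp in WT and 4817, 4604 and 5337 bp in cKO. A region of 474 bp inside Smad3 (63664990 to 63665463) went the other way, with a peak in all 3 WT lists and in no cKO list.

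The inhibitory Smads had the longest acetylated lengths of their class. Smad7 held 18272, 16159 and 16939 bp in WT and 20207, 19505 and 20846 bp in cKO (0.23 ± 0.11 SE, limma adjusted p = 0.513). Its 3 cKO libraries lay above its 3 WT libraries. Smad6 held 17714, 18825 and 20220 bp in WT and 15734, 17888 and 17532 bp in cKO (-0.15 ± 0.11 SE, limma adjusted p = 0.735). There cKO replicate 2 reached into the WT range. Smad1, a BMP effector, held 10324, 9322 and 9346 bp in WT and 8467, 7980 and 8146 bp in cKO (-0.22 ± 0.11 SE, limma adjusted p = 0.529). All 3 cKO values were below the WT values. The remaining 4 tested Smads besides these, Smad2, Smad4, Smad5 and Smad9, had log2 differences from -0.12 to 0.02.

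**Figure D3:**
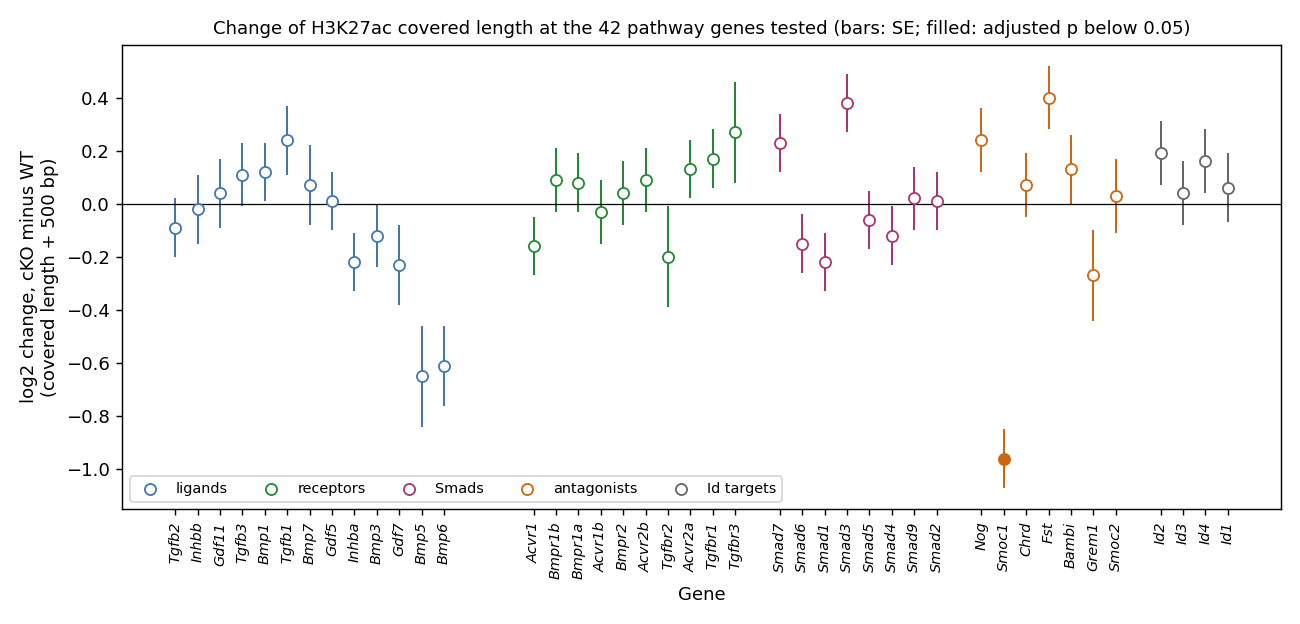
Log2 difference in H3K27ac covered length, cKO minus WT (vertical axis), for the 42 pathway genes tested, in order of mean length within each role; bars are the standard error from limma and a filled point has an adjusted p below 0.05. Smoc1 at -0.96 is the only filled point, and Bmp5 at -0.65 and Bmp6 at -0.61 are the next lowest.

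None of the 10 receptors was called, and their median log2 difference was 0.09, with 7 positive and 3 negative. Summed over the class the covered length was 83.1 to 85.9 kb in WT and 84.4 to 84.9 kb in cKO. Acvr1, a type I BMP receptor, held 19886, 18972 and 19402 bp in WT and 18332, 18171 and 15702 bp in cKO. Its cKO libraries lay below its WT libraries (-0.16 ± 0.11 SE, limma adjusted p = 0.708). Bmpr1b, another type I BMP receptor, held 15949, 14198 and 13209 bp in WT and 14037, 16789 and 15541 bp in cKO, with overlap (0.09 ± 0.12 SE, limma adjusted p = 0.854). Tgfbr1, the type I TGF-beta receptor, held 3471, 3101 and 3989 bp in WT and 4020, 3880 and 4104 bp in cKO. WT replicate 3 lay inside the cKO range (0.17 ± 0.11 SE, limma adjusted p = 0.685).

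Tgfbr2 and Tgfbr3 varied widely among the WT lists. Tgfbr2, the type II TGF-beta receptor, held 4964, 6706 and 2674 bp in WT and 4229, 3415 and 3946 bp in cKO (-0.20 ± 0.19 SE, limma adjusted p = 0.8). The difference was -0.54 in library set A and 0.49 in set B, so its sign followed the library set. Tgfbr3, a co-receptor also called betaglycan, held 2544, 3403 and 1001 bp in WT and 3735, 2296 and 2155 bp in cKO (0.27 ± 0.19 SE, limma adjusted p = 0.707). In both genes WT replicate 3, from the shortest list, had the lowest length of all 6. Over the 42 pathway genes tested, 22 had the same sign in both library sets. The share over all genes tested was not computed.

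The Id genes encode helix-loop-helix proteins that block differentiation factors and are induced by BMP signalling. All 4 had positive log2 differences (0.04 to 0.19), although only 2 of 4 did without scaling, and none was called. Id2 held 9058, 8895 and 13279 bp in WT and 11076, 11467 and 12657 bp in cKO (0.19 ± 0.12 SE, limma adjusted p = 0.668). Id4 held 7808, 8257 and 10878 bp in WT and 10372, 9853 and 9857 bp in cKO (0.16 ± 0.12 SE, limma adjusted p = 0.728). In both, WT replicate 3 was the highest of the 6 libraries, and WT replicates 1 and 2 were the lowest. The sign differed between the sets, at 0.31 for Id2 in set A and -0.07 in set B, and at 0.31 for Id4 in set A and -0.14 in set B.

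The raw length of the region over the Id2 start hardly varied, at 9076 to 9501 bp in the 6 lists. The region over the Id4 start held 7422 to 8390 raw bp. Scaling therefore raised the values of WT replicate 3, whose list covered the least, and lowered those of WT replicate 2. Id3 held 10986, 9302 and 10253 bp in WT and 9687, 11592 and 10071 bp in cKO (0.04 ± 0.12 SE, limma adjusted p = 0.939). Id1 held 8174, 7315 and 7093 bp in WT and 6688, 9372 and 7781 bp in cKO (0.06 ± 0.13 SE, limma adjusted p = 0.902). For Id1 and Id3 the WT range lay inside the cKO range or overlapped it.

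Without overlap between the 3 WT and 3 cKO libraries, 3 pathway genes were lower (Smoc1, Smad1 and Acvr1, 7.14% of 42) and 2 were higher (Smad3 and Smad7, 4.76%). Among all genes tested the shares were 4.54% lower and 7.08% higher. In raw lengths only Smoc1 of these genes was still without overlap, so the separation of the others depended on the scaling. Raw Smad7, for example, held 20915, 20454 and 12544 bp in WT and 20246, 18985 and 18213 bp in cKO. Raw Smad3 held 6264, 8010 and 4250 bp in WT and 7868, 7695 and 6573 bp in cKO. The other 22 pathway genes, described by their range (Id1 among them, its values given to complete its class), had log2 differences from -0.27 to 0.24, and the lowest limma adjusted p among them was 0.55.

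The 44 windows held 277 merged regions, 1 to 21 per gene with a median of 5. A peak in all 6 lists was found in 130 of them (46.9%, against 46.4% of 85918 regions in the genome). A peak in all 3 WT lists and no cKO list was found in 4 (1.44%, against 0.907%), namely those of Bmp7 and Smad3 given above and those of Bmpr1b and Tgfbr2. The Bmpr1b region lies inside the gene (chromosome 3, 142106062 to 142106897) and held 781, 303 and 261 raw bp in WT. The Tgfbr2 region lies inside the neighbouring gene Gadl1 (chromosome 9, 116070561 to 116071345) and held 768, 783 and 203 raw bp in WT. No region had a peak in all 3 cKO lists and no WT list, against 0.347% of all regions. With equal-length lists the shares of all regions were 0.908% in WT only and 0.987% in cKO only, and the pathway windows held 2 and 1. The -log10 q of these 4 regions was 1.57 to 4.73 in WT, where the lowest values of the 6 lists were 1.31 to 1.39. With 3 libraries against 3, an exact permutation test for a single region cannot give a p below 0.1.

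Among the 130 regions with a peak in all 6 lists, 8 were shorter in every cKO list than in any WT list (6.15%, against 4.58% of such regions in the genome). Another 8 were longer (6.15%, against 7.94%). The shorter regions were 3 in Smoc1 and 1 each in the windows of Smad4, Smad6, Bmp5, Gdf5 and Tgfbr2. The Smad6 region (chromosome 9, 63979680 to 63982207, inside the gene) held 1277, 1997 and 1434 bp in WT and 885, 862 and 864 bp in cKO. The longer regions were 2 in Bmpr1b and 1 each in the windows of Smad3, Smad7, Fst, Nog, Acvr1 and Tgfbr1. The longest of these, inside Bmpr1b (chromosome 3, 141931192 to 141938256), held 4739, 4199 and 4152 bp in WT and 5506, 6900 and 6567 bp in cKO. Acvr1 thus had a longer region inside a window whose total was shorter. In raw lengths the groups overlapped at the longer regions of Smad3, Smad7, Acvr1 and Tgfbr1 and at the Bmpr1b region from 142156433 to 142157831. They also overlapped at the shorter regions of Smad4 and of Smoc1 at 73.6 kb. The separation of these regions therefore depended on the scaling.

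**Figure D4:**
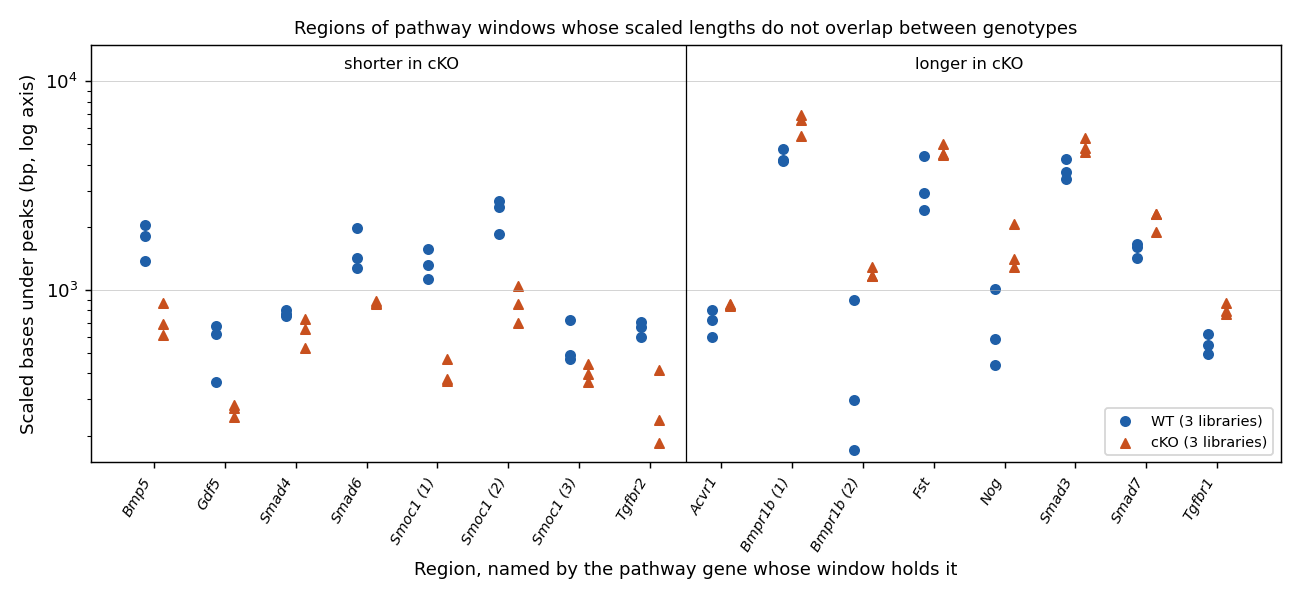
Scaled bases under peaks (vertical log axis, bp) in the 16 regions of pathway windows with a peak in all 6 lists and no overlap between the 3 WT (circles) and 3 cKO (triangles) libraries, 8 shorter in cKO on the left and 8 longer on the right. The 2 Smoc1 regions near 0 and 28.2 kb, labelled (1) and (2), and the Bmp5 region show wide gaps. At Fst, Smad4, Acvr1 and the Smoc1 region labelled (3) the groups nearly touch.

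A wider list of 65 pathway genes (further ligands, antagonists, matrix-binding proteins and transcriptional corepressors) was read beside the 44 genes. Of these, 57 were tested and 0 were called by limma, with a median log2 difference of 0.01. At an unadjusted limma p below 0.05, 2 of the 57 were higher and 5 lower. Among all genes tested the shares were 5.66% and 4.29%. Without overlap between the genotypes, 5 of the 57 were higher and 5 lower, beside 7.08% and 4.54% of all genes tested. Rgma, a BMP co-receptor, held 23894, 23904 and 24192 bp in WT and 33391, 36990 and 31495 bp in cKO, without overlap (0.49 ± 0.11 SE, limma adjusted p = 0.0748). Its window is shared with Chd2. Cer1, a secreted antagonist, held 2337, 2481 and 1591 bp in WT and 3454, 3242 and 2462 bp in cKO in a window shared with Frem1 (limma adjusted p = 0.107). The lower genes with the smallest p were Fstl5 (-0.38, limma adjusted p = 0.285) and Chrdl2, a chordin-like antagonist (-0.32, limma adjusted p = 0.291). With equal-length lists, each cut to its 48168 strongest peaks, Chrdl2 was called (-0.75, limma adjusted p = 0.0165). Fstl5 passed with windows of 2 kb around gene ends (-0.55, limma adjusted p = 0.00437). Rgma passed with a pseudocount of 2000 bp (0.47, limma adjusted p = 0.0105) and with windows of 100 kb (0.45, limma adjusted p = 0.0368).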

How the data were processed

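H3K27ac ChIP-seq was measured in E15.5 whole cortex, 3 WT and 3 cKO libraries; the 6 input libraries were not analysed here. Native chromatin was digested with micrococcal nuclease, per the labels' protocols. FastQC, cutadapt, Bowtie2 2.2.8, MACS2 2.1.1 and the mm10 build are named in the submitters' processing notes. Parameters, use of input as control and pooling were not given in the sources used here. Each deposited list (1 per library) gives positions, a display score (not used), the authors' fold enrichment ratio (not printed) and -log10 p and q per peak. The lists hold no read counts, so depth is unknown, and sequencing depth, precipitation efficiency and acetylation can each lengthen a list. Peak height does not enter the covered length.

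Genes, starts and promoter sequences came from RefSeq tables of GRCm38.p6, the assembly behind mm10. All 44 members matched by symbol, 28 with a start; exons were not used. Of the pathway windows, 22 also reached another protein-coding gene. Covered length in each window was scaled to the list's total, log2 transformed after adding 500 bp, and fitted with limma 3.58.1 in R 4.3.3 (lmFit and eBayes, trend and robust off), tested on simulated data; every p for a gene is two-sided and from limma. Regions were peaks of the 6 lists merged where they overlapped by at least 1 bp or touched. Python 3.11.15 was used with pandas 2.3.3, numpy 2.4.6 and, for figures, matplotlib 3.10.9.

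The members and gene lists were chosen with earlier results of these data known. Values by library were given for members called or without overlap, the 2 with the longest covered length and the 2 with the smallest p per role, those with 0 bp in only some lists, and those with a region in 1 genotype only. Of the wider pathway list, the 2 genes per direction with the smallest p were named. Alternatives covered peak threshold, list length, each library left out, covariate, replicate block, pseudocount, filter, scaling, window and the merging and overlap of regions. Scaling to the summed gene windows and library set A alone were chosen after seeing the data.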

Additional observations from a re-analysis of the deposited data

How the results depend on the processing

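Smoc1 was lower in cKO in all 19 alternatives in which it was tested (log2 -1.36 to -0.46) and passed in 13, with limma adjusted p from 7.74e-05 to 0.306. It did not pass with equal-length lists (0.0666), without WT replicate 2 (0.0566), WT replicate 3 (0.114) or cKO replicate 3 (0.107), without scaling (0.306), or in library set A alone (0.114). The fits without either replicate 3 and in set A alone all rest on the set A comparison, so they are not separate checks. Bmp5 passed in 5 of 19 alternatives, Bmp6 in 1 of 15, Rgma in 2 of 20, Fstl5 in 1 of 20 and Chrdl2 in 1 of 18. Pathway genes called lower numbered 1, against 2 (Smoc1 and Bmp5) with peaks of -log10 q of at least 5, with the replicate block and with gene bodies alone. With equal-length lists the 1 call was Bmp5. They numbered 0 without scaling, with 2 kb around gene ends (where Smoc1 was not tested) and in set A alone, and 0 to 2 with a library left out. No pathway gene was called higher in any of these 20 alternatives.

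Of all genes, 57 were called higher and 49 lower. The counts higher and lower were 20 and 18 with -log10 q of at least 5, 36 and 22 with equal-length lists, and 21 and 18 without the library-set covariate. They were 19 and 20 with a pseudocount of 100 bp, 108 and 100 with 2000 bp, and 7 and 16 with no filter. They were 1 and 0 without scaling, 4 and 14 with quantile normalization, and 19 and 23 with scaling to summed gene windows. Gene bodies alone gave 22 and 20, windows of 100 kb gave 77 and 74, and set A alone gave 1 and 1. Leaving out 1 library gave 1 to 130 higher and 1 to 106 lower: 4 and 2 without WT replicate 2, 1 and 2 without WT replicate 3, and 1 and 1 without cKO replicate 3. Other directions also depended on the setting: the log2 difference of Tgfbr2 ranged from -0.55 to 0.7, that of Id3 from -0.57 to 0.12 and that of Inhbb from -0.17 to 0.07.

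Same-numbered WT and cKO libraries correlated in their deviations from the group means at 0.132, 0.063 and 0.261, and WT replicate 2 correlated best with cKO replicate 1 (0.167), so the numbers were not taken as pairs. A fit with the replicate block called 85 genes higher and 83 lower, Bmp5 among the lower (-0.65, limma adjusted p = 0.0237). Regions in pathway windows present only in WT and only in cKO numbered 4 and 0. They were 4 and 3 with -log10 q of at least 5, 2 and 1 with equal-length lists, 6 and 1 where a peak had to cover 50% of a region, and 4 and 0 when gaps of up to 1 kb were merged. Leaving out 1 library gave 4 to 13 and 0 to 3, with the 13 arising without WT replicate 3 and the 3 without WT replicate 2. Depth is unknown, so a missing peak shows only that none was listed.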
